A study of Mus musculus with 4 samples.

Results

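Hes1 transcript divided 4 arrays of foetal liver haematopoietic progenitors into a pair in which it was high and a pair in which it was low, and these pairs did not follow the reporter labels. The arrays were grouped by the deposited linear intensity of the only Hes1 probe set, at a threshold of 200. The value was 441 in HES1-GFP negative replicate 1 and 538 in negative replicate 2, which form the Hes1-high pair. The Hes1-low pair consists of negative replicate 3, at 104, and the array that bears the HES1-GFP positive label, at 94.8. All 4 arrays of the series thus enter, 2 in each pair. The grouping departs from the labels: the array labelled positive had the lowest Hes1 intensity of all, and it stands beside an array labelled negative. Because a measured value of these same arrays chose the pairs, every difference between them is a description. No p-value is given, and no mean is taken over a pair.

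The RNA came from E13.5 mouse embryos of the genotype Hes1 GFP/WT, which carry a GFP reporter allele of Hes1 beside a wild-type allele, and every array shares this genotype, age and tissue. The sorted cells were lineage negative, cKit+ and Sca1+ (LSK), the compartment of foetal liver that contains haematopoietic stem cells and multipotent progenitors, and the study set GFP negative cells (3 arrays) against GFP positive cells (1 array). The labels name neither litters nor sorts, so how far the arrays are biologically separate is not known, and they do not say how many embryos were pooled. The labels call all samples female. The X-linked transcript Xist lay between 10.84 and 11.13 on the log2 scale, while the Y-linked Kdm5d lay between 8.79 and 9.51 and Eif2s3y between 8.21 and 9.39, above the median of all probe sets (6.23) in every array. Uty, also Y-linked, lay between 5.91 and 6.96 and was under that median in negative replicate 3. Its 3 other probe sets were under that median in every array. None of these genes separated the pairs by 1 log2 unit.

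Hes1 is a basic helix-loop-helix repressor. Notch receptors, when bound by Delta or Jagged ligands on a neighbouring cell, release an intracellular domain that joins the DNA-binding protein Rbpj and switches on Hes1 and related genes. In blood formation Notch signalling is best known for directing lymphoid progenitors into the T lineage, where Bcl11b, Gata3, Dtx1 and Notch3 respond to it, and for the emergence of blood stem cells in the embryo. Hes1 also responds to other signals, so its level alone does not report Notch.

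For each gene the gap between the pairs was taken as the lowest log2 value of the higher pair minus the highest log2 value of the lower pair. A gap of at least 1 log2 unit therefore means that every array of the higher pair was at least 2-fold brighter than every array of the lower pair. Of 18192 genes other than Hes1, 282 (1.55%) had such a gap with the higher values in the Hes1-high pair, and 169 (0.929%) had one with the higher values in the Hes1-low pair. With no minimum gap, 3168 genes (17.4%) were higher in both Hes1-high arrays and 4319 (23.7%) in both Hes1-low arrays, while 10705 overlapped. The median gap over all genes was 0. The 2 arrays of a pair also differed from each other: 1600 genes (8.8%) lay at least 1 log2 unit apart within the Hes1-high pair and 1170 (6.43%) within the Hes1-low pair. The gap exceeded the difference within each pair in 255 of the 282 genes and in 149 of the 169. With 1 array left out, a pair has no range of its own and the counts were larger by construction. They ran from 471 (without negative replicate 3) to 616 (without negative replicate 1) for genes higher in the Hes1-high pair, with 615 without negative replicate 2 and 491 without the array labelled positive. For genes higher in the Hes1-low pair they ran from 444 (without negative replicate 3) to 507 (without negative replicate 1), with 464 without negative replicate 2 and 457 without the array labelled positive. All 282 and all 169 genes were among those found in each of these cases, which also holds by construction.

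The larger gaps were on the Hes1-high side. There, 104 genes had a gap of at least 2 log2 units, 35 of at least 3 and 6 of at least 4, against 26, 5 and 1 on the Hes1-low side. Other probe sets, which match other stretches of a transcript in the same RNA and are not replicates, existed for 161 of the 282 genes. For 118 of them at least 1 other probe set also separated the pairs in the same direction, for 39 all other probe sets overlapped, and for 8 at least 1 went the other way. On the Hes1-low side the corresponding counts were 47, 17 and 6 of 66 genes. In 126 of the 282 genes and 62 of the 169, both arrays of the lower pair were under the median of all probe sets, a level at which intensity may be mostly background. The gap then says little about how low the transcript was.

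**Figure D1:**
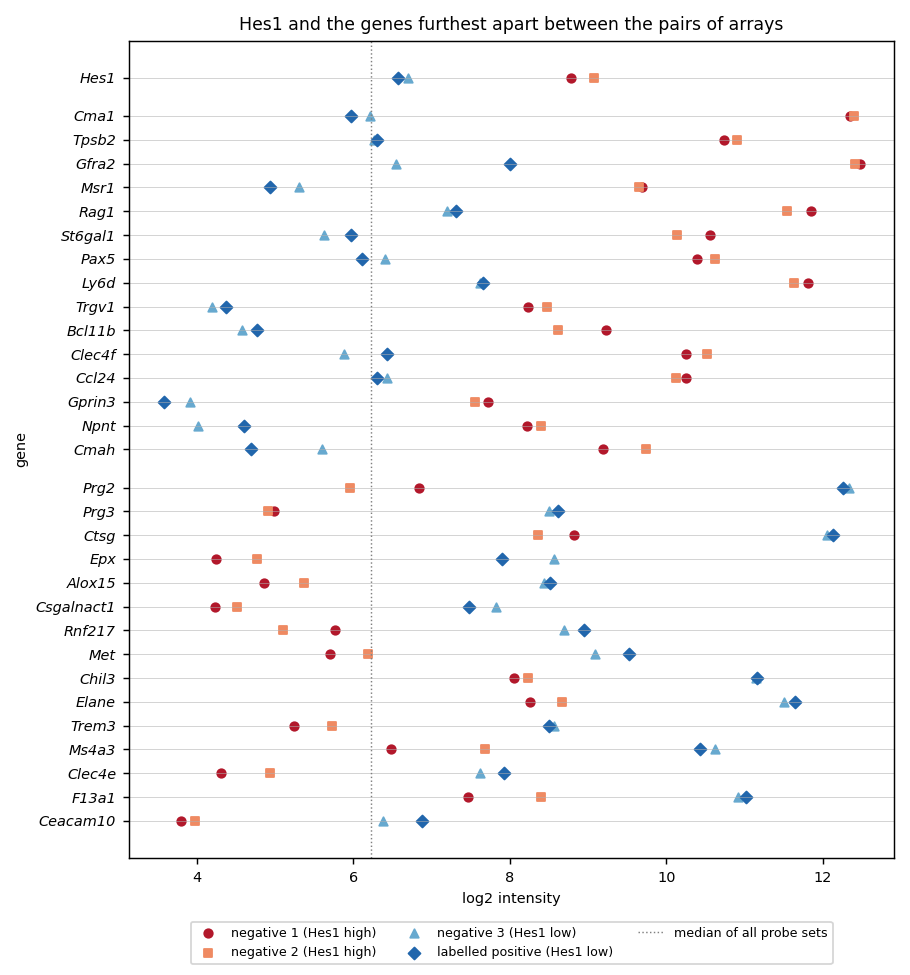
Log2 intensity (x axis) of Hes1 and of the 15 genes with the widest gap in each direction (y axis), with a point for each of the 4 arrays and a dotted line at the median of all probe sets. Warm points are the Hes1-high pair and blue points the Hes1-low pair: Cma1 stands at 12.35 and 12.39 in the former and at 6.22 and 5.97 in the latter, and Prg2 at 12.34 and 12.25 in the latter.

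Hes1 itself read 8.78, 9.07, 6.70 and 6.57 on the log2 scale in negative replicates 1, 2 and 3 and the array labelled positive, the order in which 4 values are given from here on. The gap of 2.09 log2 units is the outcome of the grouping and supports nothing. Among 14 measured Notch target genes other than Hes1, 4 were higher in the Hes1-high pair by a gap of at least 1 log2 unit (background 1.55%). None was higher in the Hes1-low pair by such a gap, and the median gap of the list was 0.17. Bcl11b, a transcription factor of T-lineage commitment, read 9.23, 8.61, 4.58 and 4.78. Its 3 other probe sets separated the pairs in the same direction. Gata3, which acts in T and innate lymphoid development, read 8.22, 7.85, 6.21 and 5.83. Notch3, a receptor that is itself a Notch target, read 8.27, 8.52, 6.15 and 7.04, and its other probe set had a gap of 2.46. For Bcl11b and Gata3 the lower pair lay near or under the median of all probe sets.

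Dtx1, a ubiquitin ligase of the Notch pathway, read 8.25, 5.94, 4.21 and 4.17. The gap of 1.73 hides a difference of 2.31 between the 2 Hes1-high arrays, and the other Dtx1 probe set overlapped. Hey1, a relative of Hes1, was higher in the Hes1-high pair by less than the threshold (7.52, 7.91, 6.22 and 6.91), as was Notch1 (11.75, 11.74, 10.85 and 10.50). The other Notch1 probe set was past it, at 10.56, 10.63, 9.34 and 8.82, a gap of 1.22. The other Hes1 relatives in the list, Hes5, Hey2 and Heyl, did not separate the pairs. Hes5 read 7.32, 7.36, 7.42 and 7.18, and Hey2 and Heyl were under the median of all probe sets in every array. Nrarp, a feedback inhibitor of Notch, overlapped (8.23, 7.05, 7.57 and 8.22), and so did the targets Myc, Ccnd1 and Ptcra. Hes1 was thus high in arrays in which 7 of the 14 listed targets were higher and 7 overlapped, against 17.4% of all genes that were higher in both Hes1-high arrays.

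Of 26 measured receptors, ligands and processing genes of the pathway, Notch3 had a gap of at least 1 log2 unit with the probe set used (background 1.55%), and Notch1 with its other probe set. Rbpj overlapped between the pairs (8.29, 9.46, 9.29 and 9.41), as did the ligands Dll1, Dll3, Dll4 and Jag2 and the protease Adam10. Lfng, a glycosyltransferase that tunes which ligand a receptor answers to, read 9.22, 9.61, 8.85 and 8.66 (its other probe set overlapped), and the receptor Notch2 read 12.21, 12.09, 11.96 and 11.95. Notch4 was the member furthest towards the Hes1-low pair, at 5.17, 5.68, 7.11 and 6.16.

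**Figure D2:**
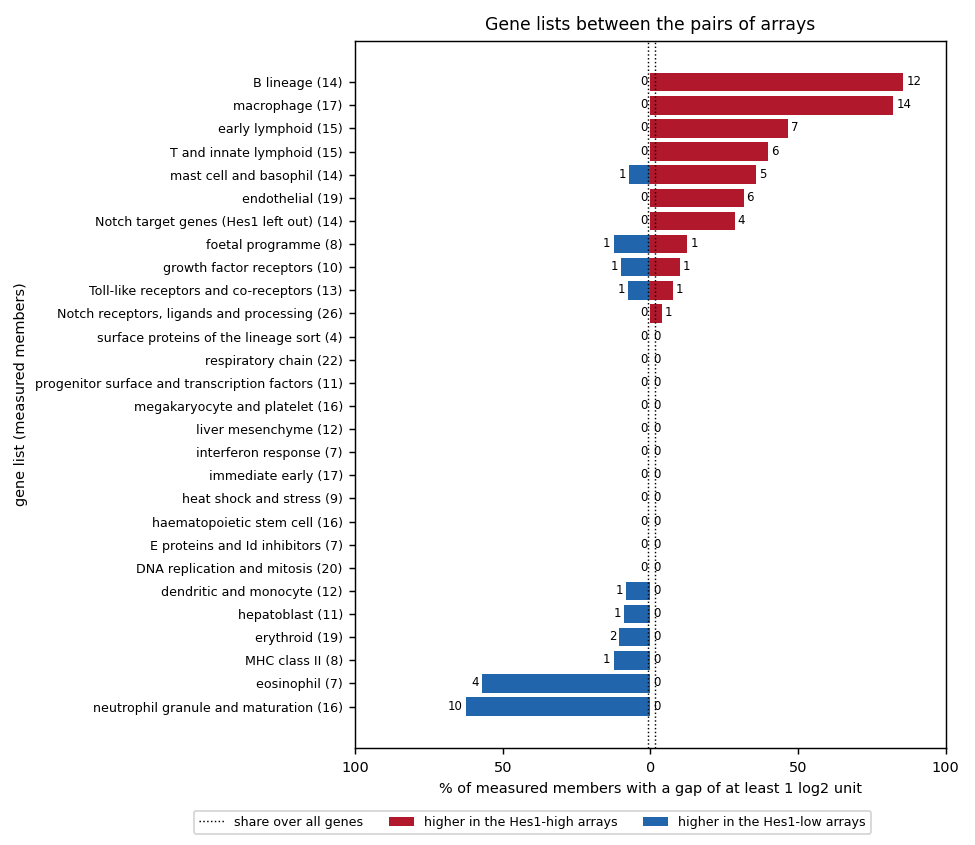
Percentage of each list's measured members (number in brackets) with a gap of at least 1 log2 unit between the pairs, to the right for members higher in the Hes1-high arrays and to the left for members higher in the Hes1-low arrays, with counts at the bars and dotted lines at the shares over all genes (1.55% and 0.929%). B lineage (12 of 14) and macrophage genes (14 of 17) reach furthest to the right, and neutrophil (10 of 16) and eosinophil genes (4 of 7) furthest to the left.

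All 15 measured genes of early lymphoid progenitors were higher in both Hes1-high arrays, 7 of them by a gap of at least 1 log2 unit (the background shares are 17.4% and 1.55%). The summed linear intensity of the list was 35480 and 34377 in the Hes1-high arrays against 15743 and 13752 in the Hes1-low arrays. Rag1, which with Rag2 cuts DNA to assemble antigen receptor genes, read 11.85, 11.54, 7.20 and 7.32, an 18.7-fold difference between the nearest arrays of the pairs. Rag2 read 8.99, 8.71, 6.64 and 6.88. Il7r, the receptor chain for the lymphoid growth factor interleukin 7, read 12.11, 11.75, 8.89 and 8.39, and its other probe set had a gap of 3.36. Ly6d, which marks lymphoid progenitors biased to the B lineage, read 11.81, 11.63, 7.63 and 7.66. In each of these genes the gap exceeded the difference within either pair.

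Ccr9, a chemokine receptor of thymus-homing progenitors, was high in the Hes1-high pair (10.95 and 10.94) and uneven in the Hes1-low pair (7.24 and 8.73). Ikzf3 read 9.61, 10.17, 6.87 and 7.09, but its 2 other probe sets overlapped. Other members of the list differed less. Flt3, the receptor of multipotent and lymphoid progenitors, read 12.12, 11.95, 11.63 and 11.07, and Ikzf1 read 11.81, 11.69, 11.26 and 11.38. Dntt, the template-free polymerase of antigen receptor joining, was near the median of all probe sets (6.73, 6.56, 5.92 and 5.91), and Cd27 hardly separated the pairs, with a gap of 0.04. The gaps were thus at least 1.83 log2 units for Rag1, Rag2, Il7r and Ly6d and at most 0.32 for Flt3 and Ikzf1.

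B-lineage genes were mostly past the gap. Of 14 measured genes 12 had a gap of at least 1 log2 unit towards the Hes1-high pair (background 1.55%), and the median gap was 1.80. The summed intensity was 24420 and 25649 against 5488 and 5569. Ebf1, which starts the B-cell programme, read 10.13, 9.97, 6.61 and 5.90, and 3 of its 4 other probe sets separated the pairs in the same direction. Pax5, which fixes B-cell identity, read 10.39, 10.62, 6.41 and 6.11. Its other probe set had a gap of only 0.25, with 7.66 and 5.74 in the Hes1-high arrays. Cd79a, the signalling chain of the B-cell receptor, read 11.72, 12.19, 8.28 and 7.44, and its partner Cd79b read 11.27, 11.41, 9.66 and 10.14.

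The surrogate light chain genes, which pair with the heavy chain in precursor B cells, were bright in all arrays and brighter in the Hes1-high pair. Vpreb1 read 12.77, 12.64, 10.85 and 10.54, and Igll1 read 11.07, 10.84, 8.77 and 9.51. Vpreb3 read 10.63, 10.58, 7.84 and 7.74. Pou2af1, Spib, Blnk, Blk and Foxo1, all factors or signalling proteins of B-cell development, had gaps of 2.06, 1.55, 1.80, 2.00 and 1.28. Ms4a1 (CD20), a marker of mature B cells, was under the median of all probe sets in every array (3.63, 3.34, 3.73 and 4.06), and Cd72 separated the pairs by 0.06. St6gal1, a sialyltransferase abundant in B cells, was among the 15 widest gaps (10.56, 10.14, 5.63 and 5.97), and Cmah, another enzyme of sialic acid metabolism, read 9.20, 9.74, 5.60 and 4.69. Here, as in the whole comparison of bulk RNA, fewer cells of a type and less RNA per cell cannot be told apart.

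In the T and innate lymphoid list 6 of 15 measured genes had a gap of at least 1 log2 unit towards the Hes1-high pair (background 1.55%). None had one towards the other. Without negative replicate 1, where counts are larger by construction, 10 of 15 passed, beside 616 of all 18192 genes. The 6 genes were Bcl11b, Gata3, Cd3g (8.19, 9.26, 5.16 and 5.50), Il18r1 (9.37, 9.47, 6.97 and 6.46), Thy1 (9.13, 9.44, 6.79 and 6.06) and Zbtb16 (8.68, 8.59, 6.99 and 5.85). Zbtb16 encodes PLZF, a factor of innate-like lymphocytes, and Il18r1 a receptor for interleukin 18. The other CD3 chains did not follow Cd3g: Cd3e read 6.03, 5.47, 5.57 and 5.28 and Cd3d read 5.42, 5.51, 5.82 and 5.34, all under the median of all probe sets. Trgv1, a variable segment of the T-cell receptor gamma locus, read 8.23, 8.47, 4.20 and 4.38. A segment probe set can read unrearranged transcripts, and other segments may share its sequence. Nkg7, a granule membrane protein, lay the other way at 8.90, 9.55, 9.81 and 9.79.

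E proteins, the transcription factors with which lymphoid development begins, and Id proteins, which bind and inactivate them, differed by small and opposite amounts. Tcf4 read 11.16, 11.16, 10.72 and 10.82, and Tcf3 and Tcf12 separated the pairs by 0.06 and 0.01. Id1, Id2, Id3 and Id4 were higher in the Hes1-low pair by 0.30, 0.21, 0.28 and 0.04. No member reached a gap of 1 log2 unit, a count near the background shares of 1.55% and 0.929%. With cyclic loess scaling 3 members were apart in each direction.

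Macrophage genes had the largest number of members past the gap among the lists. All 17 measured genes were higher in both Hes1-high arrays, 14 of them by at least 1 log2 unit (background 17.4% and 1.55%). The median gap was 2.16. Their summed intensity was 44645 and 43239 against 9724 and 9311. Clec4f, a lectin of liver-resident macrophages, read 10.26, 10.52, 5.88 and 6.43. The 3 chains of complement C1q, C1qa, C1qb and C1qc, had gaps of 2.39, 2.05 and 3.14, and the scavenger receptor Marco read 11.02, 10.79, 7.47 and 7.67. Hmox1, which degrades haem, read 12.46, 12.42, 8.99 and 9.52, and the iron exporter Slc40a1 read 11.56, 11.32, 9.31 and 9.58. Haem breakdown and iron export are tasks of the macrophages of erythroblastic islands, as is adhesion through Vcam1, which read 11.36, 10.98, 8.81 and 7.31. Adgre1 (F4/80), the surface marker most used for these cells, read 9.39, 9.28, 5.63 and 7.54. Its gap of 1.74 was smaller than the difference of 1.90 between the Hes1-low arrays.

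Msr1, a scavenger receptor, and Ccl24, a chemokine made by macrophages, were also among the 15 widest gaps. Msr1 read 9.69, 9.65, 5.31 and 4.94, and Ccl24 read 10.25, 10.12, 6.43 and 6.31. Csf1r, the receptor for the macrophage growth factor and also present on early myeloid progenitors, was bright everywhere and differed less (12.88, 12.97, 12.13 and 11.63). The Toll-like receptor list divided, with Tlr7 higher in the Hes1-high pair (8.16, 8.14, 5.96 and 6.41; 2 other probe sets overlapped) and Tlr3 higher in the Hes1-low pair (8.57, 6.59, 9.75 and 10.05). The other Tlr3 probe set overlapped, and the gap of 1.18 was smaller than the difference of 1.98 between the Hes1-high arrays. The macrophage genes moved with every other list that was higher in the Hes1-high pair, and their part in those results was not tested.

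Endothelial genes, which mark a cell type other than blood, were also on that side in part. Of 19 measured genes 6 were past the gap and 9 were higher in both Hes1-high arrays (background 1.55% and 17.4%). Cdh5, the cadherin of endothelial junctions, read 9.71, 9.45, 6.16 and 4.83, and its other probe set had a gap of 3.36. Lyve1, Stab1 and Stab2, receptors typical of liver sinusoidal endothelium and partly shared with macrophages, read 9.33, 9.39, 6.71 and 6.11, then 7.36, 7.87, 4.89 and 4.97, then 9.02, 8.88, 5.76 and 6.51. Kdr, a receptor for vascular endothelial growth factor, read 8.15, 7.75, 5.80 and 5.44, and Pecam1 read 10.03, 9.27, 7.93 and 7.76. Other defining genes overlapped or went the other way: Tie1 (7.28, 7.86, 8.25 and 7.57), Emcn (8.37, 8.31, 9.19 and 8.10), Eng and Egfl7 overlapped, while Tek (6.19, 6.04, 6.72 and 7.36) and Robo4 (7.36, 6.51, 8.29 and 8.34) were higher in the Hes1-low pair. The summed intensity of the list was 8548 and 8508 against 5647 and 5165. Its part in the Hes1 difference was not tested.

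Mast cell genes held the widest gap of all. Cma1, a chymase stored in mast cell granules, read 12.35, 12.39, 6.22 and 5.97, and had no other probe set. The nearest arrays of the pairs differed 70.1-fold, a lower bound if the Hes1-low values, both under the median of all probe sets, are background. The tryptases Tpsb2 (10.74, 10.90, 6.27 and 6.30) and Tpsab1 (7.68, 8.16, 4.67 and 4.60) and carboxypeptidase Cpa3 (11.78, 11.54, 7.34 and 8.15) had the same pattern. The other Tpsb2 probe set had a gap of only 0.35 and was under the median of all probe sets in every array. Tpsb2 and Tpsab1 are close paralogs and may share signal. Hdc, which makes histamine, read 11.90, 12.08, 10.54 and 10.18. These are 5 of 14 measured mast cell and basophil genes (background 1.55%), and 1 was past the gap the other way (background 0.929%). That gene, Mcpt8, a protease of basophils, read 5.91, 6.24, 7.78 and 7.55. The receptor chains that define mature mast cells were low. Fcer1a read 4.70, 5.33, 4.30 and 3.63, and Ms4a2 read 5.53, 6.31, 6.29 and 6.17. Gata2, a factor of mast cells and stem cells alike, hardly differed (10.21, 10.28, 10.41 and 10.52), and Mitf separated the pairs by 0.08. Gfra2, a receptor for neurturin, had the third widest gap (12.47, 12.41, 6.55 and 8.01), with all 4 other probe sets in the same direction.

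**Figure D3:**
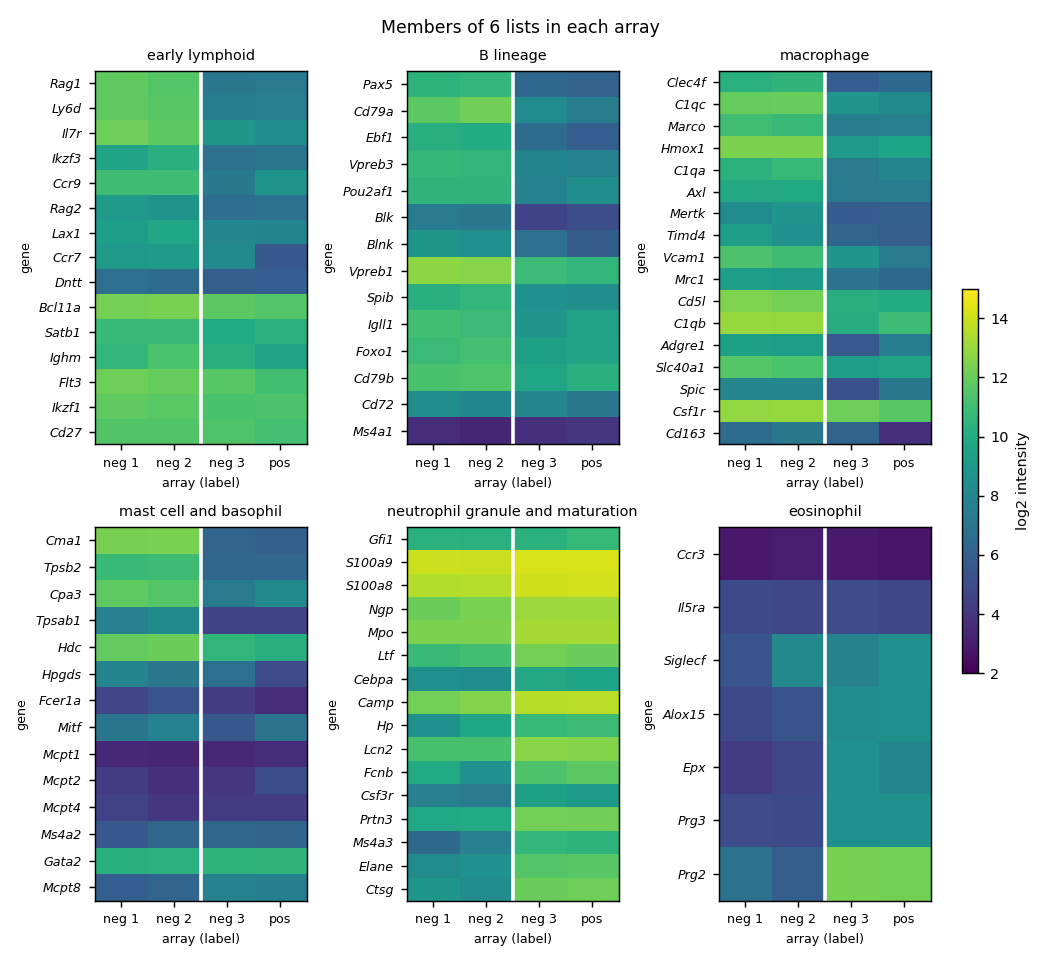
Log2 intensity (colour scale) of every measured member of 6 lists (rows) in each of the 4 arrays (columns: negative replicates 1, 2 and 3 and the array labelled positive), with a white line between the Hes1-high and Hes1-low pairs and members ordered by their gap within a list. The early lymphoid, B lineage and macrophage panels are brighter to the left of the line. So are Cma1, Tpsb2, Tpsab1, Cpa3 and Hdc in the mast cell panel. In that panel Mcpt8 is brighter to the right, and Mcpt1, Mcpt2 and Mcpt4 are dark throughout. The neutrophil and eosinophil panels are brighter to the right, with Ccr3 and Il5ra dark throughout.

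Granule genes of neutrophil precursors were higher in the Hes1-low pair. Of 16 measured genes 10 had a gap of at least 1 log2 unit in that direction and 15 did not overlap (background shares 0.929% and 23.7%), with a median gap of -1.06. The summed intensity was 98982 and 100441 in the Hes1-low arrays against 51725 and 54284 in the Hes1-high arrays. The primary granule proteases had the widest gaps: Ctsg, cathepsin G, read 8.82, 8.37, 12.05 and 12.12, Elane, neutrophil elastase, read 8.26, 8.66, 11.51 and 11.65, and Prtn3, proteinase 3, read 9.75, 9.93, 12.24 and 12.20. Ms4a3, a membrane protein of granulocyte and monocyte progenitors, read 6.48, 7.68, 10.62 and 10.43. Mpo, myeloperoxidase of the same granules, differed less (12.42, 12.42, 13.24 and 13.27).

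Genes of later granules differed less than the proteases. Lcn2 read 11.21, 11.22, 12.68 and 12.57, Camp read 12.26, 12.58, 13.62 and 13.68, and Ltf read 10.81, 11.06, 12.26 and 12.04. S100a8 and S100a9, abundant calcium-binding proteins of neutrophils, were among the brightest in all arrays and separated the pairs by 0.52 and 0.21. Csf3r, the receptor for granulocyte colony-stimulating factor, read 7.65, 7.42, 9.38 and 9.09, and Cebpa, which directs granulocyte fate, read 8.55, 8.48, 9.85 and 9.55. Gfi1, a transcriptional repressor that acts in granulocyte development, overlapped (10.30, 10.28, 10.29 and 10.73). Further genes of myeloid cells among the 15 widest gaps were Chil3, a chitinase-like protein (8.06, 8.24, 11.14 and 11.15), the receptors Trem3 (5.25, 5.73, 8.57 and 8.50) and Clec4e (4.32, 4.93, 7.63 and 7.93), and F13a1, a coagulation factor subunit (7.47, 8.39, 10.92 and 11.02).

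Eosinophil genes held 4 of the 5 widest gaps on the Hes1-low side. Prg2, major basic protein, read 6.85, 5.96, 12.34 and 12.25, a 42.3-fold difference between the nearest arrays. Its relative Prg3 read 4.99, 4.91, 8.50 and 8.62, eosinophil peroxidase (Epx) read 4.24, 4.77, 8.56 and 7.90, and the lipoxygenase Alox15 read 4.86, 5.38, 8.44 and 8.52. In all 4 genes the Hes1-high arrays lay near or under the median of all probe sets and the Hes1-low arrays above it. The other 3 measured genes of the list, which encode surface receptors, overlapped. Ccr3 (2.89, 3.02, 2.93 and 2.73) and Il5ra (4.90, 4.76, 5.05 and 4.76) were low in every array, and Siglecf was uneven (5.36, 8.11, 7.79 and 8.59). None of these 4 genes had another probe set. Met, the receptor for hepatocyte growth factor, was also on this side (5.71, 6.19, 9.09 and 9.52), with its other probe set apart by 1.06, and so was Csgalnact1, an enzyme of chondroitin sulfate synthesis (4.24, 4.51, 7.83 and 7.48).

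Several of these genes lie next to each other on a chromosome and were read by separate probe sets. Of the 282 genes higher in the Hes1-high pair 29 (10.3%), and of the 169 higher in the Hes1-low pair 10 (5.92%), had an adjacent measured gene past the gap in the same direction, and 4 on each side had one in the opposite direction. The share of all genes with such a neighbour was not counted, so these percentages have no background. The neighbours on the Hes1-high side were, among others, Rag1 and Rag2, the 3 C1q genes, Tpsab1 and Tpsb2, and Igll1 and Vpreb1. On the Hes1-low side they were Prg2 and Prg3, Prtn3 and Elane, Mcpt8 and Ctsg, Clec5a and Mgam, and the embryonic globins Hbb-bh1 and Hbb-y. Several of these are duplicated genes of a shared origin, and their probe sets can share sequence.

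The mast cell protease and granzyme cluster of chromosome 14 contained genes of both directions. In RefSeq order Cma1 stands at the edge of the cluster and Mcpt8 and Ctsg further inside, and Cma1 was higher in the Hes1-high pair while Mcpt8 and Ctsg were higher in the Hes1-low pair. Mcpt1, Mcpt2 and Mcpt4, between them, were under the median of all probe sets in all 4 arrays, and so were Gzmc, Gzmd, Gzme, Gzmf, Gzmg and Gzmn beyond Ctsg. Gzmb, a granzyme of cytotoxic lymphocytes, overlapped (5.92, 7.38, 6.27 and 5.97). The proteases of this cluster therefore did not all share a direction.

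**Figure D4:**
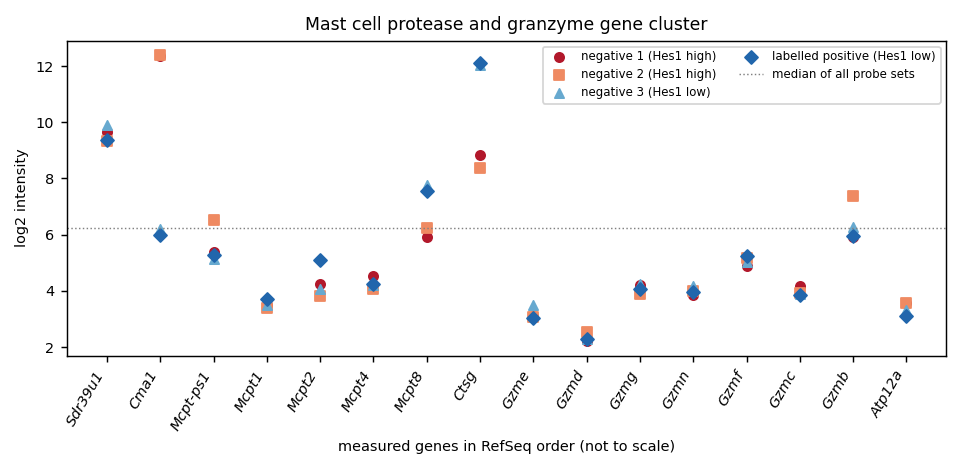
Log2 intensity (y axis) of the measured genes of the mast cell protease and granzyme cluster in RefSeq order (x axis, not to scale), with a point for each of the 4 arrays and a dotted line at the median of all probe sets. Cma1 stands high in the warm points of the Hes1-high pair (12.35 and 12.39), and Ctsg (12.05 and 12.12) and Mcpt8 (7.78 and 7.55) stand higher in the blue points of the Hes1-low pair.

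To show what lies upstream of genes past the gap, the 250 bases before the RefSeq start site (GRCm38.p6) were read for 6 of them, chosen as examples after their values were seen, 3 granule proteases of the Hes1-low side and 3 genes of the Hes1-high side. Capitals mark AGGAAGT, a core sequence bound by ETS factors such as PU.1, or its reverse complement ACTTCCT; each line runs 5′ to 3′ on the gene's strand. The windows are chr10:79886062-79886311 (Elane, plus strand), chr10:79879417-79879666 (Prtn3, plus strand), chr14:56102575-56102824 (Ctsg, minus strand), chr7:24897247-24897496 (Cd79a, plus strand), chr2:101649533-101649782 (Rag1, minus strand) and chr14:55944676-55944925 (Cma1, minus strand).
Elane: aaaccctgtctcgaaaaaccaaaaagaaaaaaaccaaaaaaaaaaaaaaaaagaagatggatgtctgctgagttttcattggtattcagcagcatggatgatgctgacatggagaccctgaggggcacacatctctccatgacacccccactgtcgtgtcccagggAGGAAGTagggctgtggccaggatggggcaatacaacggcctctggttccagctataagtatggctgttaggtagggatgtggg
Prtn3: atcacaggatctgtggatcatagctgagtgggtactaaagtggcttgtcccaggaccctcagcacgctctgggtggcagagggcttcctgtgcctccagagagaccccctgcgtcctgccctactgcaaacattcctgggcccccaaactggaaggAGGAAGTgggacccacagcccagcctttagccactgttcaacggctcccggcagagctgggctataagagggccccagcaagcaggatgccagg
Ctsg: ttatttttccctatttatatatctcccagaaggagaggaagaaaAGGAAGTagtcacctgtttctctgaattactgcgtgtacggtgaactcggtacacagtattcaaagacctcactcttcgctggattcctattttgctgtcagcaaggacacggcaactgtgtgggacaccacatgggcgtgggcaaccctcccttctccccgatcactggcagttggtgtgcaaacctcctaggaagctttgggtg
Cd79a: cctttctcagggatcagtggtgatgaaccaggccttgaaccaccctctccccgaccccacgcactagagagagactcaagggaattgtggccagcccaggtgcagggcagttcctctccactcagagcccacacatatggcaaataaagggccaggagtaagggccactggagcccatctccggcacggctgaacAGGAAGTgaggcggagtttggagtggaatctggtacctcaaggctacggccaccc
Rag1: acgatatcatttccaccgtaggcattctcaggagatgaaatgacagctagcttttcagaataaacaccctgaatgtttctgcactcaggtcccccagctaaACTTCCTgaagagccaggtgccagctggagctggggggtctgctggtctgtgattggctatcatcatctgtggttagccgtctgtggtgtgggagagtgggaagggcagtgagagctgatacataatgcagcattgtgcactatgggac
Cma1: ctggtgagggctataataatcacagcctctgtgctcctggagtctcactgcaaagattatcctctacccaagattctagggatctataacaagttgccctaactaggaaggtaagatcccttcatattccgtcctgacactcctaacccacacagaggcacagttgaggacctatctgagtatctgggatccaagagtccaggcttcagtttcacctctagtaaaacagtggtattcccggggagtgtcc
The capitals begin 84, 94 and 206 bases before the start site in Elane, Prtn3 and Ctsg, and 55 and 149 bases before it in Cd79a and Rag1. Cma1 has no such letters in its window. The examples are not representative: the letters were in 7.67% of promoters of the Hes1-high side and in 13.1% of the Hes1-low side. A match is a description of sequence, not a binding site. Hes1 and Prg2 were not matched in the promoter table.

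The same letters were counted upstream of all measured genes, on both strands, in 250 bases. RefSeq promoters were matched for 14452 of 18193 genes (18109 promoters, since a gene can have several), for 200 of the 282 genes higher in the Hes1-high pair (287 promoters) and for 135 of the 169 higher in the Hes1-low pair (168 promoters). AGGAAGT was in 7.47% of all promoters, in 7.67% of those of the Hes1-high side and in 13.1% of those of the Hes1-low side. TGGGAA, the core bound by Rbpj, was in 21.1% of all promoters, in 18.1% on the Hes1-high side and in 27.4% on the Hes1-low side. TGTGGT, bound by RUNX factors, was in 11.7% of all promoters, 17.1% on the Hes1-high side and 14.9% on the Hes1-low side. CCCNNGGG, the palindrome of EBF, was in 14.7%, 16.7% and 17.9%, and the C/EBP letters TTNNGCAA were in 8.34%, 9.06% and 9.52%. AGATAA, bound by GATA factors, was in 7.4%, 8.71% and 8.33%, and the TATA box TATAAA in 8.81%, 11.8% and 10.1%. Motifs can overlap each other, duplicated genes share upstream sequence, and no enrichment was tested.

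Genes of antigen presentation leaned to the Hes1-low pair, and dendritic and monocyte genes divided between the pairs. H2-Aa, an MHC class II chain, read 9.82, 10.10, 11.32 and 11.41, and 5 of 8 measured class II genes were higher in both Hes1-low arrays (background 23.7%), among them Cd74 (10.63, 10.55, 11.50 and 11.77). Ciita, the master activator of these genes, overlapped at 5.50, 6.16, 6.05 and 6.31, and H2-Ob went the other way by 0.13. Ccr2, the chemokine receptor of monocytes, read 7.57, 6.93, 8.64 and 8.64. It was the only gene past the gap among 12 dendritic and monocyte genes (background 1.55% and 0.929%). Siglech, a marker of plasmacytoid dendritic cells, leaned the other way (10.70, 10.38, 9.50 and 8.83), and Irf8, which directs monocyte and dendritic fate, overlapped.

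Erythroid genes were slightly higher in the Hes1-low pair. Of 19 measured genes 12 were higher in both Hes1-low arrays (background 23.7%). Only 2, the embryonic globins Hbb-bh1 and Hbb-y, had a gap of at least 1 log2 unit (background 0.929%). Hba-x, another embryonic globin, overlapped (9.64, 9.28, 9.80 and 9.04). Hbb-bh1 read 6.14, 6.34, 7.85 and 7.91, and Hbb-y read 8.32, 6.65, 9.41 and 10.17, with a difference within the Hes1-high pair (1.68) larger than the size of its gap (1.09). Rhd and Rhag, blood group membrane proteins, had gaps of 0.86 and 0.89, and the regulators Gata1 and Klf1 gaps of 0.44 and 0.33. None of 16 megakaryocyte and platelet genes was past the gap, a count near the background shares of 1.55% and 0.929%. Itga2b read 7.73, 8.12, 8.64 and 8.55, and Vwf lay the other way at 7.98, 7.05, 6.14 and 5.21.

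Genes that mark the sorted compartment itself separated the pairs by smaller gaps and in both directions. Of 16 measured stem cell genes 8 were higher in both Hes1-low arrays and 4 in both Hes1-high arrays, and of 11 progenitor genes 5 and 4 were (background 23.7% and 17.4%). None had a gap of at least 1 log2 unit, a count near the background shares of 1.55% and 0.929%. The widest gaps were those of Robo4 (0.93), Prdm16 (0.81) and Tal1 (0.73), all towards the Hes1-low pair. Hlf, a factor of stem cells, read 10.14, 9.66, 10.52 and 10.57, Prdm16 read 8.13, 8.43, 9.77 and 9.24 (of its 3 other probe sets 2 overlapped and 1 went the other way), and Procr, a surface receptor of stem cells, lay the other way at 10.06, 9.77, 8.54 and 9.48. Hmga2, a chromatin protein of foetal stem cells, was bright in all arrays (13.09, 13.09, 12.78 and 12.75). Kit, used in the sort, read 9.90, 9.72, 9.68 and 10.13. Ly6a, which encodes Sca1, had no probe set of its own. Of common lineage surface proteins, those measured were Itgam (4.71, 5.58, 6.24 and 6.18), Cd3e, Cd4 (9.82, 9.17, 8.87 and 9.02) and Cd8a (6.44, 8.41, 6.24 and 6.19), and none was past the gap with these probe sets. Of the 4 other Cd8a probe sets, however, 1 read 7.72, 7.24, 4.04 and 4.34, a gap of 2.90 towards the Hes1-high pair, while the others had gaps of at most 0.23.

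Hepatoblast and mesenchymal genes would mark liver cells other than blood. With the probe sets used, 1 of 11 and none of 12 genes were past the gap (background 1.55% and 0.929%). That gene was Dlk1, an imprinted surface protein of hepatoblasts and a non-canonical Notch ligand, at 7.76, 6.78, 10.13 and 9.23. Alb, albumin, read 8.98, 8.29, 7.22 and 7.62, and Afp overlapped (8.28, 7.54, 7.78 and 8.26). Hnf4a, a transcription factor of hepatocytes, was higher in the Hes1-low pair (8.14, 8.05, 8.76 and 9.41). Its 3 other probe sets had the same direction, 2 of them with gaps of -1.01 and -1.09. Krt18, an epithelial keratin, read 8.56, 8.25, 9.51 and 9.88. Igf2, the imprinted foetal growth factor, went the opposite way to Dlk1 (11.14, 11.04, 7.90 and 9.36), and its other probe set had a gap of 2.04. The part of hepatoblasts in these values was not tested.

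Lists of general cell functions had no member past the gap, a count near the background shares of 1.55% and 0.929%. This held for 20 genes of DNA replication and mitosis, 17 immediate early genes, 22 respiratory chain genes, 9 heat shock and stress genes and 7 interferon response genes. Mki67, a marker of cycling cells, read 12.72, 12.70, 12.73 and 12.72. With no minimum gap, where 17.4% of all genes were higher in both Hes1-high arrays and 23.7% in both Hes1-low arrays, 17 of 22 respiratory chain genes were higher in both Hes1-low arrays, by at most 0.36, and 15 with cyclic loess scaling. Immediate early genes were higher in both Hes1-high arrays in 7 of 17 cases and never the reverse. Nr4a1, which responds to receptor signals, was the widest at 9.19, 9.41, 8.13 and 8.28. In the replication and mitosis list 9 members were higher in the Hes1-low pair and 2 in the other, a balance that became 7 and 5 with cyclic loess scaling.

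RNA quality and array controls were set beside the pairs. Of 64 control probe sets none had a gap of 1 log2 unit, and the widest was 0.29. The ratio of 3 prime to 5 prime signal was 0.817, 0.808, 0.785 and 0.786 for Actb, 1.72, 1.71, 1.59 and 1.57 for Gapdh and 0.257, 0.245, 0.331 and 0.406 for Tfrc. Each ratio separated the pairs, Actb and Gapdh being higher and Tfrc lower in the Hes1-high pair, and the part of RNA quality in the gaps was not tested. The medians of the arrays ran from 74.8 to 76.1 on the linear scale. Whether the pairs were also processed apart is not in the labels, so a handling difference and the Hes1 difference cannot be told apart.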

How the data were processed

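RNA from 4 LSK samples (5 ng each, amplified) was hybridised to Affymetrix arrays, per the labels' protocols. The deposited values are linear probe set intensities made by the authors with RMA, per the submitters' processing notes; the version is not given in the sources used here. Log2 was taken with no pseudocount and no filter. Of 45101 probe sets, 64 were controls, 34945 carried 1 gene symbol (34741 matched to RefSeq by gene ID), 932 several and 9160 none. Each of 18193 genes was read by the probe set brightest on average. Each gap compares a probe set with itself across arrays. Levels of different probe sets were compared to choose the brightest per gene, beside the median of all probe sets, and in summed intensities. The number of arrays limits the precision.

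The pairs were defined at a Hes1 intensity of 200, a rule that departs from the labels, so no model was fitted and no test run. Named were Hes1, the 15 genes with the widest gap in each direction whose higher pair lay above the median of all probe sets (unnamed clones left out), and per list the 5 widest members and the markers of the cell type; single other genes were chosen after their values were seen. The members and lists were chosen with earlier results of these data known. Counting was tested on simulated data. Python 3.11.15 with numpy 2.4.6 and pandas 2.3.3 was used, and limma 3.58.1 (R 4.3.3) for other scalings. Promoters came from RefSeq (GRCm38.p6); the arrays name no build.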

Additional observations from a re-analysis of the deposited data

How the results depend on the processing

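Cyclic loess gave 300 and 149 genes past the gap (higher in the Hes1-high and in the Hes1-low pair), quantile normalization 285 and 163, probe sets above the median level 219 and 137, values floored at that median 212 and 126, averaged probe sets 233 and 144, and a pseudocount of 16 gave 244 and 130. Of the 282 and 169 genes, 282 and 148 remained with cyclic loess and 212 and 130 with averaged probe sets. A gap of at least 0.5 gave 672 and 653 genes and a gap of at least 2 gave 104 and 26, by construction. The 104 of 18192 genes at a gap of 2 included 12 of 17 macrophage, 6 of 14 B-lineage and 5 of 15 early lymphoid genes. They also included 4 of 15 T and innate lymphoid, 4 of 14 mast cell and basophil and 1 of 14 Notch target genes. The 26 of 18192 genes on the Hes1-low side included 4 of 16 neutrophil and 4 of 7 eosinophil genes. With 1 array left out the counts were 471 to 616 and 444 to 507, and the T and innate lymphoid count was 6 to 10. Of 144 named genes other than Hes1 (130 with the level filter), none changed direction under these settings. Only cyclic loess, quantile normalization and averaged probe sets could have reversed a gene, since the other settings keep the order of the arrays. Among the named genes 11 overlapped with averaged probe sets and 9 with floored values. Cyclic loess moved the genes higher without a minimum gap to 3717 and 3850.

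No paired analysis was possible because the labelled groups share fewer than 2 replicate numbers and no test was run. With 2 arrays a pair, dim probe sets without detection calls, and no scanner files used, the gaps have no error of their own.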

Other observations

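The probe sets with several gene symbols or none, which entered no comparison above, also separated the pairs. Of 10092 such probe sets, 131 (1.3%) had a gap of at least 1 log2 unit towards the Hes1-high pair and 54 (0.535%) towards the Hes1-low pair.

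Some genes stood out in the array labelled positive; they were chosen after their values were seen. Lin28a, an RNA-binding protein of foetal and embryonic cells, read 4.14, 4.73 and 4.08 in negative replicates 1, 2 and 3 and 8.11 in the array labelled positive. Arid3a, a transcription factor of foetal lymphoid development, read 7.75, 7.97, 7.69 and 9.04 in the same order. Lin28b, named for comparison, was low in all arrays (3.10, 3.03, 2.85 and 2.92). Ccr7, a chemokine receptor of lymphoid cells, read 8.99, 9.15 and 8.15 in the negative arrays and 5.52 in the array labelled positive. With 1 array there is no replicate check on these values.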
